A study of Mus musculus with 2 samples.

Results

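The genes described here are those named for proteins of the mitochondrial ribosome. Going by name, they include Mrps36 and leave out ribosomal proteins with other names, both described below. They were taken as the rows of the deposited expression table whose gene name starts with Mrpl or Mrps followed by a digit, which gave 78 of 11275 gene IDs, 49 named for the large subunit (Mrpl) and 29 for the small subunit (Mrps). All 78 IDs carry the same symbol in GENCODE vM21, and no protein-coding gene of that annotation with such a name was missing from the table. Gene expression was measured by RNA-Seq in mouse primary aortic vascular smooth muscle cells (VSMCs), which form the muscular layer of arteries, infected with a Klf5 adenovirus (Ad-K5) or with a green fluorescent protein adenovirus (Ad-GFP). By the methods of the study, the cells came from male mice and infection lasted 36 hours. The labels name 1 library per group, with the strain as C57BL/7 for Ad-K5 and C57BL/6 for Ad-GFP, so infection, strain and culture cannot be told apart in any value below. The treatment text of the labels describes another cell line with a lentivirus, and how many animals the cells came from was not given in the sources used here. The table holds FPKM, a read density scaled to transcript length and to the mapped reads of the library, so the number of reads behind a value is unknown and no replicate check or test between the groups was possible.

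Mitochondria carry their own ribosome, which translates the mRNAs of the mitochondrial genome into membrane subunits of the respiratory chain and of ATP synthase. Its RNA is made inside the organelle, while its proteins are encoded in the nucleus, made in the cytosol and imported. The large subunit holds the peptidyl transferase center and the small subunit decodes the mRNA. Part of the proteins have bacterial homologues and the others are found only in mitochondria. Several of the genes cause infantile cardiomyopathy or other respiratory chain disease when mutated in humans.

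The promoters of these genes are shown first, because Klf5 is a DNA-binding factor of GC-rich and CACCC sites. Whether Klf5 acts on these genes was not tested. RefSeq windows on GRCm38.p6, from 250 bases before to 50 bases after the gene's start, were found for 69 of the 78 genes. Mrpl13, Mrpl54, Mrps28, Mrps34, Mrpl19, Mrpl38, Mrps35, Mrpl4 and Mrpl15 had no entry. The windows below are those of the 3 genes with an entry and the highest difference between the libraries (Mrpl52 on chr14:54426659-54426958, plus strand; Mrpl47 on chr3:32736706-32737005, minus strand; Mrps22 on chr9:98601630-98601929, minus strand), of the gene with the lowest difference (Mrpl9 on chr3:94443086-94443385, plus strand) and of Mrps11 (chr7:78782881-78783180, plus strand), whose window shares 141 bases with that of its divergent neighbour Mrpl46. The Mrpl47 gene in GENCODE vM21 starts upstream of its RefSeq window, at 32737605, so that window follows RefSeq alone. Each is written from 5′ to 3′ on the gene's own strand, and capitals mark matches, on either strand, to 5 motifs. These were the CACCC box, the GC box with the letters GGGCGG, the core of the site for the respiratory factor NRF1 with the letters TGCGCA, the core of ETS factor sites (as bound by GABPA) with the letters CCGGAAG, and the core of the site for YY1 with the letters AAGATGG.
Mrpl52: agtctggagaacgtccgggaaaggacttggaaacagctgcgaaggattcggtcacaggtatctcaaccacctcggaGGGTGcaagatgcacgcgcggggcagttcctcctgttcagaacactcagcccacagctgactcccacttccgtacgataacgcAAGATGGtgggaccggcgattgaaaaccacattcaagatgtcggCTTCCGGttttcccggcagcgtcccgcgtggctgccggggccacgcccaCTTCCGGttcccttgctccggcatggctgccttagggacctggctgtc
Mrpl47: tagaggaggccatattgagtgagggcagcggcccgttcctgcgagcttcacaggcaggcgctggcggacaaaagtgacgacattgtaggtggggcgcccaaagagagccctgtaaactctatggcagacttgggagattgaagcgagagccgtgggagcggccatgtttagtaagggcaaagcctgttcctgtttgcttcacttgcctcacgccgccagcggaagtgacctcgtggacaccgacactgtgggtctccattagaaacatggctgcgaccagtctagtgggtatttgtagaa
Mrps22: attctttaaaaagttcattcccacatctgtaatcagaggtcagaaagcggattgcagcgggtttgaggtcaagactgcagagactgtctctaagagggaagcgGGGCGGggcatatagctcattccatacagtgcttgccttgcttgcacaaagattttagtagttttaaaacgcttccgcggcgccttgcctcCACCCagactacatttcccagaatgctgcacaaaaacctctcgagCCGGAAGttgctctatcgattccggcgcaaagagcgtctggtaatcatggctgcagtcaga
Mrpl9: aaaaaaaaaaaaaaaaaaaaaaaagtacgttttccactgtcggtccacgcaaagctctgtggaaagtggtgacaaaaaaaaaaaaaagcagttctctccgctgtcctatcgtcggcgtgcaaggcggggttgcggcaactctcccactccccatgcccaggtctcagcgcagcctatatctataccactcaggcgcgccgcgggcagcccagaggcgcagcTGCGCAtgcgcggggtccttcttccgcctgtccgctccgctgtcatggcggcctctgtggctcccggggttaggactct
Mrps11: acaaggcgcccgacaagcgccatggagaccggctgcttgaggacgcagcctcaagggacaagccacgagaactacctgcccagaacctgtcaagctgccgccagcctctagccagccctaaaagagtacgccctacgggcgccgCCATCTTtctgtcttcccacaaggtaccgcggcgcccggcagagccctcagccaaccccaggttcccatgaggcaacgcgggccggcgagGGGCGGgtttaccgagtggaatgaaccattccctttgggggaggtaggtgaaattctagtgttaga

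The Mrpl52 window held 2 ETS cores, 1 YY1 core and 1 CACCC box, the Mrps22 window 1 GC box, 1 CACCC box and 1 ETS core, and the Mrpl9 window 1 NRF1 core. The Mrps11 window held 1 GC box and 1 YY1 core, and no match was found in the Mrpl47 window. Of the 69 genes, 26 had the ETS core (37.7%), against 22.0% of the 7971 expressed genes with a window and 9.93% of all 27025 genes of the reference. The NRF1 core was in 21 genes (30.4%), against 17.2% of expressed genes and 8.79% of all genes of the reference. The YY1 core was in 13 genes (18.8%), against 9.03% and 7.28%. The GC box was in 34 genes (49.3%), against 72.6% of expressed genes and 38.2% of all genes of the reference. The CACCC box was in 35 genes (50.7%), against 66.7% and 59.8%. Thus the ETS, NRF1 and YY1 letters were in a larger share, and the GC and CACCC boxes in a smaller share, of these genes than of expressed genes. A gene was counted if any of its windows held the motif, so a gene with more windows has more chances to match. Of the 69 genes, 3 have several windows. The windows per expressed gene were not counted, and their part in these shares was not tested. The median difference of genes with and without a motif was 0.43 and 0.30 for the YY1 core, 0.32 and 0.31 for the NRF1 core, 0.32 and 0.31 for the ETS core, 0.30 and 0.34 for the GC box, and 0.31 and 0.33 for the CACCC box. A match of letters is a description and not a measured binding site, and no binding was measured in these data.

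Klf5 itself was at 2.62 FPKM in Ad-K5 and 1.76 FPKM in Ad-GFP, a difference of 0.39 on the log2(FPKM + 1) scale, and whether this counts the viral transcript is not known. The FPKM of all genes summed to 300045 in Ad-K5 and 278962 in Ad-GFP. Of 8 smooth muscle markers 7 were listed, with summed levels of 259.6 FPKM in Ad-K5 and 295 FPKM in Ad-GFP, of which Acta2 made up most. Acta2, Myl9, Smtn and Lmod1 were lower in Ad-K5, and Cnn1 and Des were nearly the same. Tagln was higher, at 14.4 FPKM in Ad-K5 and 10.3 FPKM in Ad-GFP. Myh11 was not among the listed genes. None of 5 endothelial markers was listed. Of 5 mesothelial markers 3 were listed (Msln, Upk3b and Krt19), with summed levels of 113.9 FPKM in Ad-K5 and 19.2 FPKM in Ad-GFP. Of 4 fibroblast markers only Pdgfra was listed, at 4.62 FPKM in Ad-K5 and 13.7 FPKM in Ad-GFP. Of 5 macrophage markers 2 were listed, and they went opposite ways. Cd68 was at 0.94 FPKM in Ad-K5 and 0.23 FPKM in Ad-GFP, and Cd14 at 9.31 FPKM in Ad-K5 and 13.5 FPKM in Ad-GFP. The part of these cell type differences in the values below was not tested, and in bulk RNA more of 1 cell type and more RNA per cell cannot be told apart.

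The mitochondrial ribosomal protein genes were higher in Ad-K5 than in Ad-GFP nearly throughout, by small amounts. Of the 78 genes, 74 had a difference above 0, where 47.9% of the 10157 genes tested did. The difference is log2(FPKM + 1) in Ad-K5 minus that in Ad-GFP, over genes whose 2 libraries averaged 1 FPKM or more, which all 78 genes did. Every count past 1.5-fold or 2-fold here and below is of FPKM + 1, which understates the ratio of the printed FPKM values, most of all for genes of low level. The median difference was 0.32 for the 78 genes, with quartiles of 0.21 and 0.46, and -0.017 for all genes tested, with quartiles of -0.25 and 0.21. In 58 of the 78 genes the difference lay above the upper quartile of all genes, a place that holds 25% of them by construction. At 1.5-fold, 10 of the 78 genes were higher, where 4.44% of all genes were, and 0 were lower, where 5.48% of all genes were. None was 2-fold apart in FPKM + 1 in either direction, while with 0.1 in place of 1 Mrpl13 was 2-fold higher. Of all genes, 0.975% were 2-fold higher and 0.679% were 2-fold lower. The genes summed to 2668 FPKM in Ad-K5 and 2094 FPKM in Ad-GFP, which is 0.889% and 0.751% of the FPKM of the table. With the libraries scaled to the same FPKM sum, 67 of the 78 differences were above 0, where 37.3% of all genes were, and the median was 0.22. On that scale 5 of the 78 genes were 1.5-fold higher, where 2.90% of all genes were higher and 8.44% lower, and the median of all genes was -0.11.

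**Figure D1:**
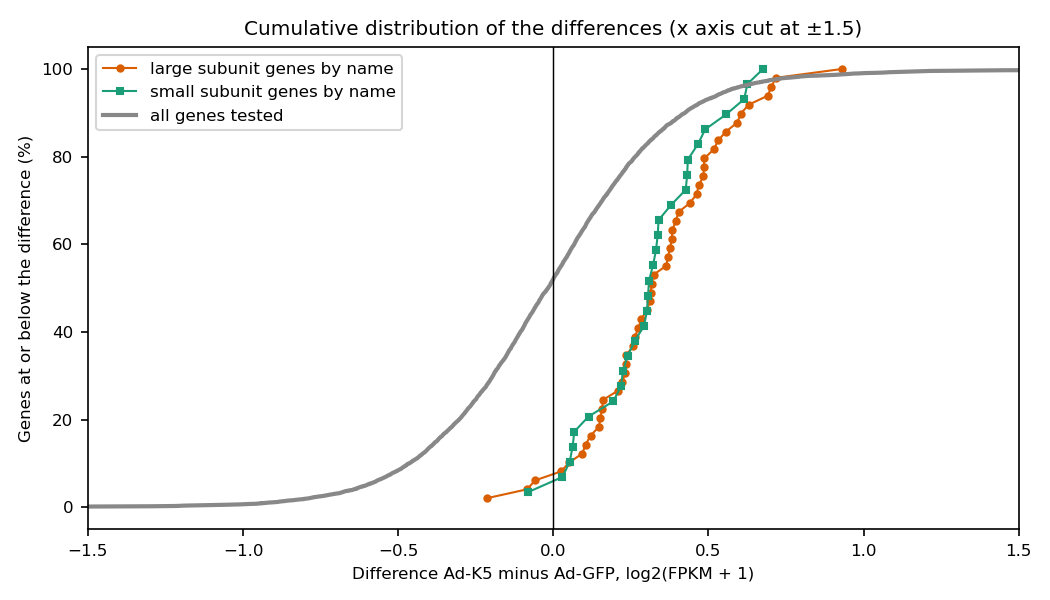
Cumulative share of genes (%, y axis) against the difference Ad-K5 minus Ad-GFP on the log2(FPKM + 1) scale (x axis), for the 49 large subunit genes, the 29 small subunit genes and the 10157 genes tested. Both subunit curves run to the right of all genes except at their upper end, and close to each other, with medians of 0.32 and 0.31 against -0.017.

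The large and the small subunit had nearly the same median. The median difference was 0.32 for the 49 large subunit genes and 0.31 for the 29 small subunit genes, so that the medians were 0.0086 apart. Above 0 were 46 of 49 large subunit genes and 28 of 29 small subunit genes, where 47.9% of all genes tested were. At 1.5-fold, 7 and 3 genes were higher, where 4.44% of all genes were. The range was -0.22 to 0.93 in the large subunit and -0.081 to 0.68 in the small subunit, and the ranges overlapped over nearly their whole length. Large subunit genes by name had the higher median level. The median level of the large subunit genes was 28.1 FPKM in Ad-K5 and 22.5 FPKM in Ad-GFP, and that of the small subunit genes was 20.4 FPKM in Ad-K5 and 17.4 FPKM in Ad-GFP. The ratio of the summed levels of Ad-K5 over Ad-GFP was 1.28 for the large subunit and 1.27 for the small subunit.

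A few gene names do not match the place of the protein. In structures of the mammalian mitoribosome the products of Mrps18a and Mrps30 lie in the large subunit, and Mrps36 is now known as a component of the 2-oxoglutarate dehydrogenase complex. Mrps30 was at 9.88 FPKM in Ad-K5 and 7.37 FPKM in Ad-GFP, a difference of 0.38. Mrps18a, which with Mrps18b and Mrps18c forms a family of homologues of one bacterial protein, was at 19.9 FPKM in Ad-K5 and 14.5 FPKM in Ad-GFP (0.43). Mrps18b was at 15.5 FPKM in Ad-K5 and 10.2 FPKM in Ad-GFP (0.56), and Mrps18c, the member closest to the bacterial protein, was at 35.3 FPKM in Ad-K5 and 28.4 FPKM in Ad-GFP (0.30). All 3 members of the family were thus higher in Ad-K5, each by less than 1.5-fold in FPKM + 1, although Mrps18b passed 1.5-fold with 0.1 added in place of 1. Mrps36 was at 28.3 FPKM in Ad-K5 and 22.2 FPKM in Ad-GFP (0.34). With the genes assigned by structure, 51 to the large and 26 to the small subunit, the medians were 0.32 and 0.30. The ratio of median levels, large over small, was then 1.22 in Ad-K5 and 1.11 in Ad-GFP. By name it was 1.37 in Ad-K5 and 1.29 in Ad-GFP.

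The levels of the 78 genes spanned a wide range, from 2.87 to 179.6 FPKM in Ad-K5 and from 1.89 to 110.0 FPKM in Ad-GFP. Mrpl54, a protein found only in mitochondria, had the highest mean level, with 179.6 FPKM in Ad-K5 and 110.0 FPKM in Ad-GFP. Mrpl28 followed with 130.7 FPKM in Ad-K5 and 105.9 FPKM in Ad-GFP (a difference of 0.30). Mrpl12, the stalk protein that contacts translation factors, was at 107.8 FPKM in Ad-K5 and 79.2 FPKM in Ad-GFP (0.44). These most abundant genes belonged to the large subunit, and the highest small subunit gene came next. It was Mrps21, with 88.6 FPKM in Ad-K5 and 69.9 FPKM in Ad-GFP (0.34). Mrpl34 was at 86.3 FPKM in Ad-K5 and 66.3 FPKM in Ad-GFP (0.38). In all, 13 genes were above 50 FPKM in both libraries, while under 5 FPKM there were 4 genes in Ad-K5 and 9 in Ad-GFP. The shares of all genes past these levels were not counted. The median level in Ad-K5 was 25.3 FPKM for the 78 genes and 8.59 FPKM for all genes tested. In Ad-GFP it was 19.0 FPKM for the 78 genes and 8.90 FPKM for all genes tested. At the low end, Mrpl1, the protein of the stalk on the side where transfer RNA leaves, was at 2.87 FPKM in Ad-K5 and 2.31 FPKM in Ad-GFP (0.22). Mrpl3, mutated in human mitochondrial cardiomyopathy, was at 5.48 FPKM in Ad-K5 and 3.63 FPKM in Ad-GFP (0.48). Mrpl15 was at 4.90 FPKM in Ad-K5 and 4.69 FPKM in Ad-GFP. Mrpl47 and Mrpl48, described below by their differences, complete the lowest levels. The order of levels was nearly the same in both libraries, with Pearson's r = 0.986 across the 78 genes on the log2 scale, where it was 0.974 across all genes tested. Genes are not independent replicates, and both libraries share the gene lengths. These are levels of mRNA, and the proteins were not measured in this table.

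**Figure D2:**
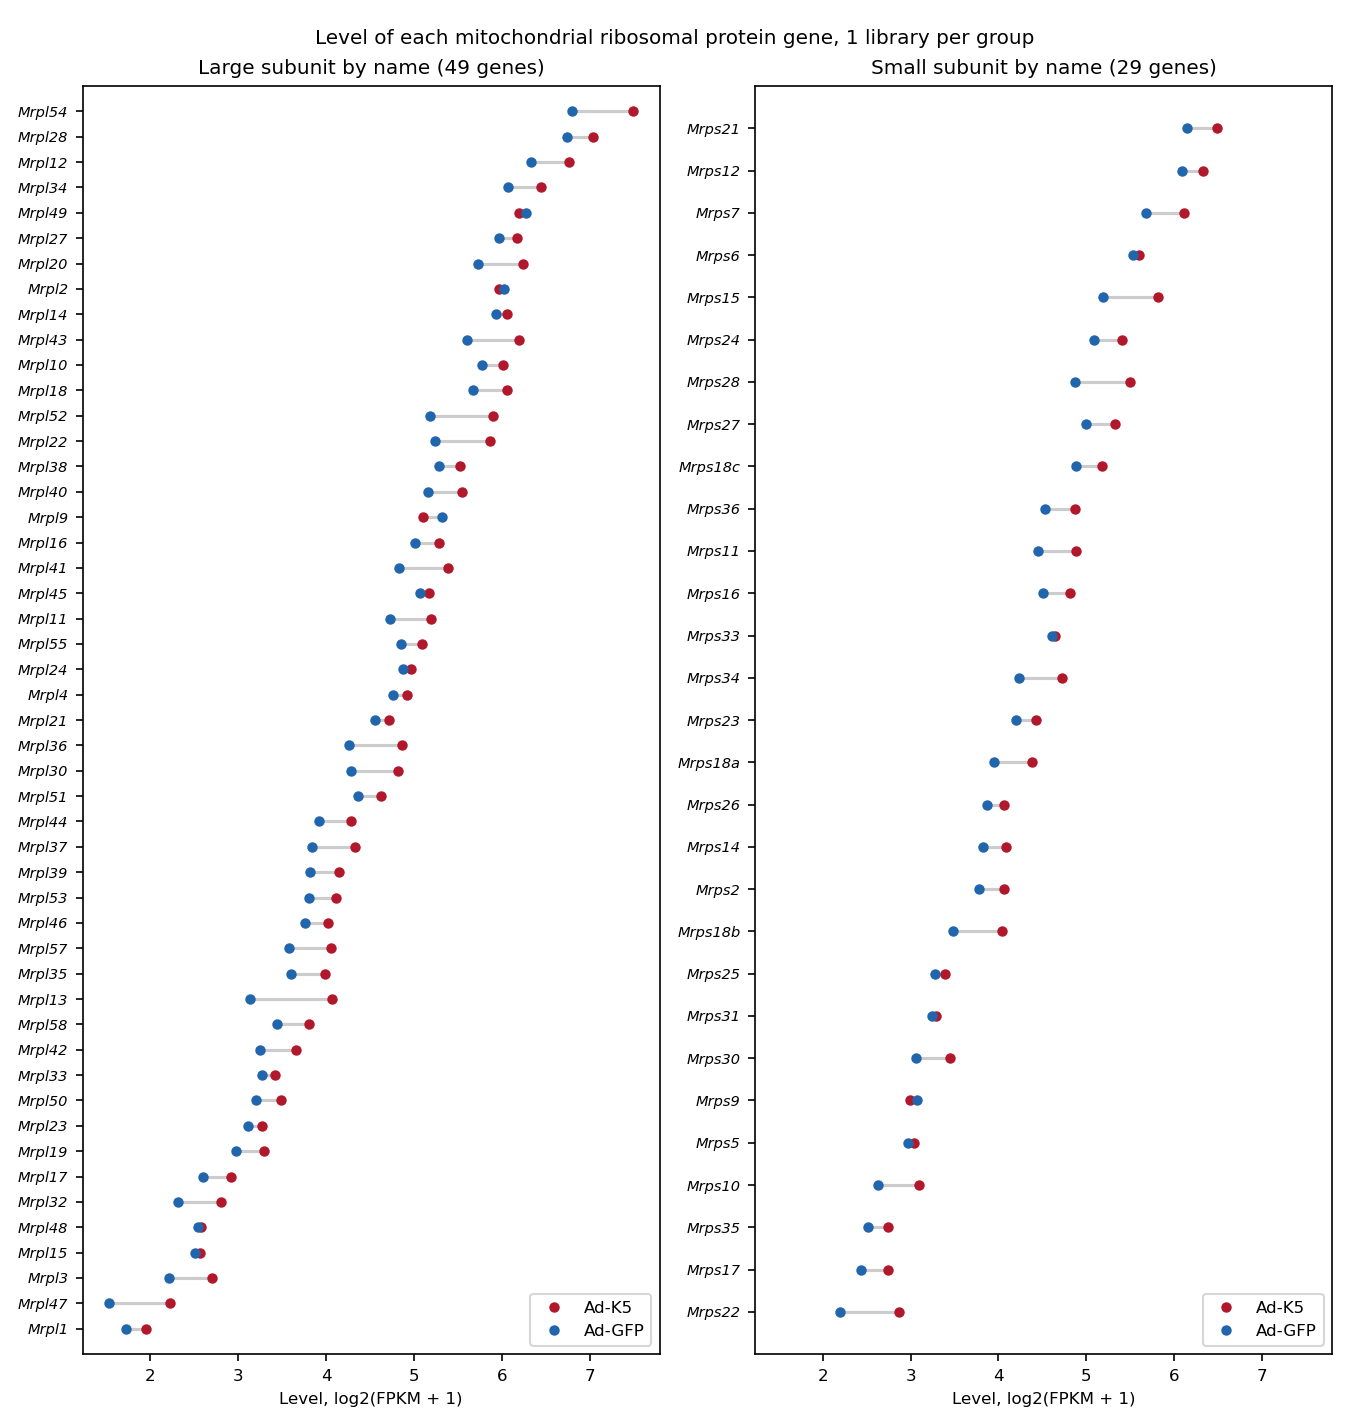
Level of each gene as log2(FPKM + 1) in the Ad-K5 library (red) and the Ad-GFP library (blue), ordered by mean level, with large subunit genes by name on the left and small subunit genes on the right. The red point lies to the right of the blue one in 74 of 78 genes, at low and at high levels.

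Mrpl13, a core protein of the large subunit with a bacterial homologue, had the highest difference of the 78 genes. It was at 15.7 FPKM in Ad-K5 and 7.77 FPKM in Ad-GFP, a difference of 0.93, at percentile 98.7 of all genes tested. The gene (ENSMUSG00000022370.13) lies on chromosome 15 from 55534094 to 55557748 on GRCm38, on the minus strand. Mrpl52 (ENSMUSG00000010406.12, chr14:54426909-54429756) was at 58.8 FPKM in Ad-K5 and 35.4 FPKM in Ad-GFP (0.72). Mrpl54 (ENSMUSG00000034932.4, chr10:81264713-81266934), given above as the most abundant, had a difference of 0.70. Both encode proteins of the large subunit without a bacterial homologue. Mrpl47 (ENSMUSG00000037531.8, chr3:32725397-32737605), at the exit of the peptide tunnel, was at 3.66 FPKM in Ad-K5 and 1.89 FPKM in Ad-GFP (0.69).

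The highest small subunit gene was Mrps22 (ENSMUSG00000032459.9, chr9:98588730-98601660), a mitochondria-specific protein mutated in human respiratory chain disease, at 6.32 FPKM in Ad-K5 and 3.58 FPKM in Ad-GFP (0.68). Mrpl22, which lines the peptide tunnel, was at 57.3 FPKM in Ad-K5 and 36.6 FPKM in Ad-GFP (0.63). Mrps28, a homologue of the bacterial mRNA-binding protein of the small subunit, was at 44.3 FPKM in Ad-K5 and 28.3 FPKM in Ad-GFP (0.63), and Mrps15 was at 55.1 FPKM in Ad-K5 and 35.6 FPKM in Ad-GFP (0.62). Mrpl36 at 0.60 and Mrpl43 at 0.59 completed the 10 genes that were 1.5-fold higher. Mrpl36, with a bacterial homologue, was at 28.1 FPKM in Ad-K5 and 18.1 FPKM in Ad-GFP. Mrpl43, found in mitochondria only, was at 72.3 FPKM in Ad-K5 and 47.6 FPKM in Ad-GFP. These 10 genes held both low and high levels and both subunits. Mrps18b (0.56) and Mrpl41 (0.56) lay just under 1.5-fold in FPKM + 1.

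Only 4 of the 78 genes had a difference below 0 in these libraries, and none of them reached 1.5-fold. Mrpl9 (ENSMUSG00000028140.13, chr3:94443318-94451130), with a bacterial homologue in the large subunit, was at 33.3 FPKM in Ad-K5 and 38.8 FPKM in Ad-GFP (-0.22). Mrpl49, found only in mitochondria, was at 72.1 FPKM in Ad-K5 and 76.6 FPKM in Ad-GFP (-0.085). Mrps9, with a bacterial homologue in the small subunit, was at 6.96 FPKM in Ad-K5 and 7.42 FPKM in Ad-GFP (-0.081). Mrpl2, which lies near the peptidyl transferase center, was at 61.5 FPKM in Ad-K5 and 64.1 FPKM in Ad-GFP (-0.059). The next genes were Mrpl48 (0.025), Mrps33 (0.029), Mrpl15 (0.051) and Mrps31 (0.053), so that the low end passed through 0 without a gap. Mrpl48 was at 4.94 FPKM in Ad-K5 and 4.84 FPKM in Ad-GFP. Mrps33 was at 24.0 FPKM in Ad-K5 and 23.5 FPKM in Ad-GFP. Mrps31 was at 8.81 FPKM in Ad-K5 and 8.45 FPKM in Ad-GFP.

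By place in the large subunit, the stalk that recruits translation factors had the highest median of the 3 places described. Its 4 genes had differences of 0.46 for Mrpl11, 0.44 for Mrpl12, 0.31 for Mrpl53 and 0.23 for Mrpl10, with a median of 0.38. Mrpl11 was at 35.6 FPKM in Ad-K5 and 25.5 FPKM in Ad-GFP. Mrpl53, which shares 88.0% of its exon bases with Gm42688 on the same strand, was at 16.3 FPKM in Ad-K5 and 12.9 FPKM in Ad-GFP. Mrpl10, which carries Mrpl12 in the stalk, was at 63.3 FPKM in Ad-K5 and 53.8 FPKM in Ad-GFP. The tunnel exit, where the new peptide leaves toward the inner membrane, had the widest range of the 3. Its median over 6 genes was 0.23, with Mrpl47 and Mrpl22 1.5-fold higher as given above and the other 4 below 0.32. Mrpl17 was at 6.57 FPKM in Ad-K5 and 5.08 FPKM in Ad-GFP (0.317). Mrpl23 was at 8.62 FPKM in Ad-K5 and 7.66 FPKM in Ad-GFP (0.15). The lower values included the protein that faces the membrane. This was Mrpl45, which anchors the ribosome there, at 34.9 FPKM in Ad-K5 and 32.4 FPKM in Ad-GFP (0.10). Mrpl24 was at 30.4 FPKM in Ad-K5 and 28.4 FPKM in Ad-GFP (0.093).

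The central protuberance, which contacts the small subunit, had a median of 0.26 over 7 genes and a range of 0.025 to 0.39. Mrpl18 was at 65.9 FPKM in Ad-K5 and 49.9 FPKM in Ad-GFP (0.39). Mrpl40 was at 45.7 FPKM in Ad-K5 and 34.8 FPKM in Ad-GFP (0.38). Mrpl58, a peptidyl-tRNA hydrolase that is also part of the ribosome, was at 13.0 FPKM in Ad-K5 and 9.85 FPKM in Ad-GFP (0.37). These 3 genes were close to one another in difference and the next 3 lower. Mrpl46 was at 15.2 FPKM in Ad-K5 and 12.5 FPKM in Ad-GFP (0.26). Mrpl38 was at 45.0 FPKM in Ad-K5 and 38.1 FPKM in Ad-GFP (0.23). Mrpl55 was at 33.0 FPKM in Ad-K5 and 27.9 FPKM in Ad-GFP (0.23). All 17 genes of these 3 places were thus above 0, where 47.9% of all genes tested were. The ranges of the 3 places overlapped.

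Origin followed the protein names of the mitoribosome nomenclature, with Mrps36 left out. Mrps18a and Mrps18b thus count as mitochondria-specific, although they belong to a family of homologues of a bacterial protein. The 46 genes classed with a bacterial homologue had a median difference of 0.31, and the 31 classed as mitochondria-specific had 0.33. Above 0 were 43 and 30 genes, where 47.9% of all genes tested were. Among mitochondria-specific genes the median was 0.37 for the 21 of the large subunit and 0.22 for the 10 of the small subunit, assigned by structure, while among genes with a bacterial homologue it was 0.31 for the 30 of the large and 0.31 for the 16 of the small subunit. Levels were higher in the genes with a bacterial homologue, with medians of 29.9 FPKM in Ad-K5 and 25.9 FPKM in Ad-GFP, than in the mitochondria-specific ones, with medians of 18.5 FPKM in Ad-K5 and 13.6 FPKM in Ad-GFP.

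Many of these genes share exon bases with a neighbour, which limits single values. Of the 78 genes, 33 overlap another annotated gene and 21 a protein-coding gene of the table. Overlaps of all other genes were not counted, so whether these shares are unusual is not known. The share of exon bases was 69.8% for Mrps25 with Nr2c2, 63.4% for Mrps34 with Mapk8ip3, 36% for Mrpl19 with Gcfc2 and 33.4% for Mrpl43 with Twnk, all on the opposite strand. Mrps34 also shares 37.0% with Nme3 on the same strand, and Mrpl53 88.0% with Gm42688, as given above, which counting by strand could not separate. Smaller shares on the same strand included 23.2% of Mrps18c with Gm43511, 19.9% of Mrps6 with Gm49711 and 15.4% of Mrps24 with Urgcp. Of the genes with the highest differences, Mrpl13 shares 4.16% with Mtbp. Mrpl47, of low level, shares 13.9% with Ndufb5 and 10.2% with Actl6a. The labels describe a library that keeps the strand, but whether the counting used it is not given in the sources used here, so these values are uncertain.

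Exon length moved with the differences over the whole table. Spearman's rho between exon length and difference was -0.26 across 10142 genes and -0.16 across the 78 mitochondrial ribosomal protein genes, which were short, with a median of 2394 bases against 4332 bases for all genes tested. Genes tested were therefore split into 5 groups of equal size by exon length. In the shortest group, up to 2431 bases, the median difference was 0.34 for the 39 mitochondrial ribosomal protein genes and 0.12 for the 1991 other genes. In the longest group, from 7267 bases, it was 0.22 for 7 of these genes and -0.14 for the 2022 others. In all, 71 of the 78 genes lay above the median of the other genes of their length group, and 73 of 78 above that of their level group. By construction these medians split the other genes evenly. Of the other genes, 64.6% were above 0 in the shortest group. In the group of highest level, which holds 32 of the 78 genes, 60.9% of the others were. The group of lowest level holds only 2 of the 78. The median of the mitochondrial ribosomal protein genes was thus above that of other genes in each of the 5 length groups and each of the 5 level groups. The part of length within a group was not tested.

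**Figure D3:**
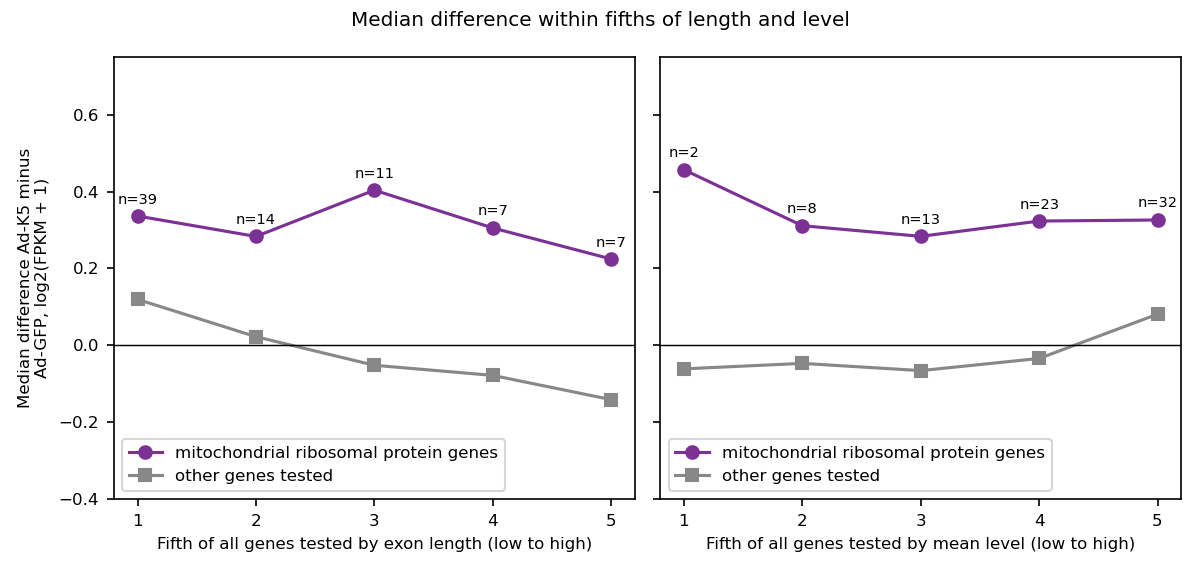
Median difference Ad-K5 minus Ad-GFP on the log2(FPKM + 1) scale (y axis) in 5 groups of equal size of all genes tested, ordered by exon length (left) or mean level (right), with the number of mitochondrial ribosomal protein genes beside each point. These genes lie between 0.22 and 0.46 in all groups, and the other genes between -0.14 and 0.12.

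The other genes of the pathway did not all stand where the ribosomal proteins stood. The 5 mitoribosomal proteins that carry other names were all above 0, where 47.9% of all genes tested were, with a median of 0.38. Among them Ptcd3, a pentatricopeptide protein of the small subunit, was at 5.76 FPKM in Ad-K5 and 4.08 FPKM in Ad-GFP (0.41). Aurkaip1 was at 42.9 FPKM in Ad-K5 and 32.1 FPKM in Ad-GFP (0.41). Chchd1 was at 87.4 FPKM in Ad-K5 and 66.9 FPKM in Ad-GFP (0.38). Dap3, a GTP-binding protein of the small subunit, had 0.12 and Gadd45gip1 of the large subunit 0.078.

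Of 17 listed mitochondrial translation factors 14 were tested. Of these, 7 were above 0 and 7 below 0, where 47.9% of all genes tested were above 0. None was 1.5-fold apart in FPKM + 1, where 4.44% of all genes tested were higher and 5.48% lower. The median of the 14 factors was -0.026. The elongation factor Tufm, which brings transfer RNA to the ribosome, was at 44.5 FPKM in Ad-K5 and 33.3 FPKM in Ad-GFP (0.41), and its exchange factor Tsfm was at 16.5 FPKM in Ad-K5 and 13.1 FPKM in Ad-GFP (0.32). The mRNA-binding protein Slirp was at 9.99 FPKM in Ad-K5 and 7.16 FPKM in Ad-GFP (0.43). The initiation factor Mtif2 was at 2.52 FPKM in Ad-K5 and 3.69 FPKM in Ad-GFP (-0.41).

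All 27 listed assembly and ribosomal RNA factors were tested, and 16 were above 0, where 47.9% of all genes tested were. Their median was 0.054. At 1.5-fold in FPKM + 1, only Nsun4 of the 27 was apart, where 4.44% of all genes tested were higher and 5.48% lower. Nsun4, a methyltransferase that acts on the RNA of the small subunit and helps join the subunits, was lower. It was at 2.02 FPKM in Ad-K5 and 5.92 FPKM in Ad-GFP (-1.20). Tfb1m, another methyltransferase of the small subunit RNA, was at 9.10 FPKM in Ad-K5 and 5.77 FPKM in Ad-GFP (0.58). Mpv17l2 was at 31.9 FPKM in Ad-K5 and 21.9 FPKM in Ad-GFP (0.52). Fastkd2, which binds the RNA of the large subunit, was at 2.21 FPKM in Ad-K5 and 1.43 FPKM in Ad-GFP (0.40). Of 7 genes of mitochondrial transcription 5 were tested, with a median of 0.049. None was 1.5-fold apart in FPKM + 1, beside the same shares of all genes. Mterf2, a factor of the termination factor family, was at 1.87 FPKM in Ad-K5 and 3.18 FPKM in Ad-GFP (-0.54). Tfb2m, which opens the promoter for the mitochondrial RNA polymerase, was at 4.25 FPKM in Ad-K5 and 3.38 FPKM in Ad-GFP (0.26). Tfam, which packs the mitochondrial genome, was at 9.89 FPKM in Ad-K5 and 10.9 FPKM in Ad-GFP (-0.13).

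The mRNAs that this ribosome translates, 13 in all, had a median difference of 0.51. Of them, 12 were above 0 and 5 at least 1.5-fold higher, where 47.9% and 4.44% of all genes tested were. The highest was mt-Nd1, a subunit of complex I, at 1294 FPKM in Ad-K5 and 529.8 FPKM in Ad-GFP (1.29). Also of complex I, mt-Nd2 was at 679.8 FPKM in Ad-K5 and 359 FPKM in Ad-GFP (0.92). The cytochrome oxidase subunit mt-Co2 was at 1297 FPKM in Ad-K5 and 751 FPKM in Ad-GFP (0.79). The others past 1.5-fold in FPKM + 1 were mt-Atp6 of ATP synthase (0.73) and mt-Cytb of complex III (0.69). The 88 cytosolic ribosomal protein genes had a median of 0.23, with 78 above 0 and 3 at least 1.5-fold higher, beside the same shares of all genes. The mitochondrial ribosomal proteins, at 0.32, lay between these lists, and no test of the difference between lists could be made with 1 library per group. The median exon length was 3762 bases for the translation factors and 4006 bases for the assembly factors, longer than the 2394 bases of the mitochondrial ribosomal protein genes. It was 784 bases for the mitochondrially encoded mRNAs and 1730 bases for the cytosolic ribosomal proteins, both shorter, and the part of length in the order of these lists was not tested.

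**Figure D4:**
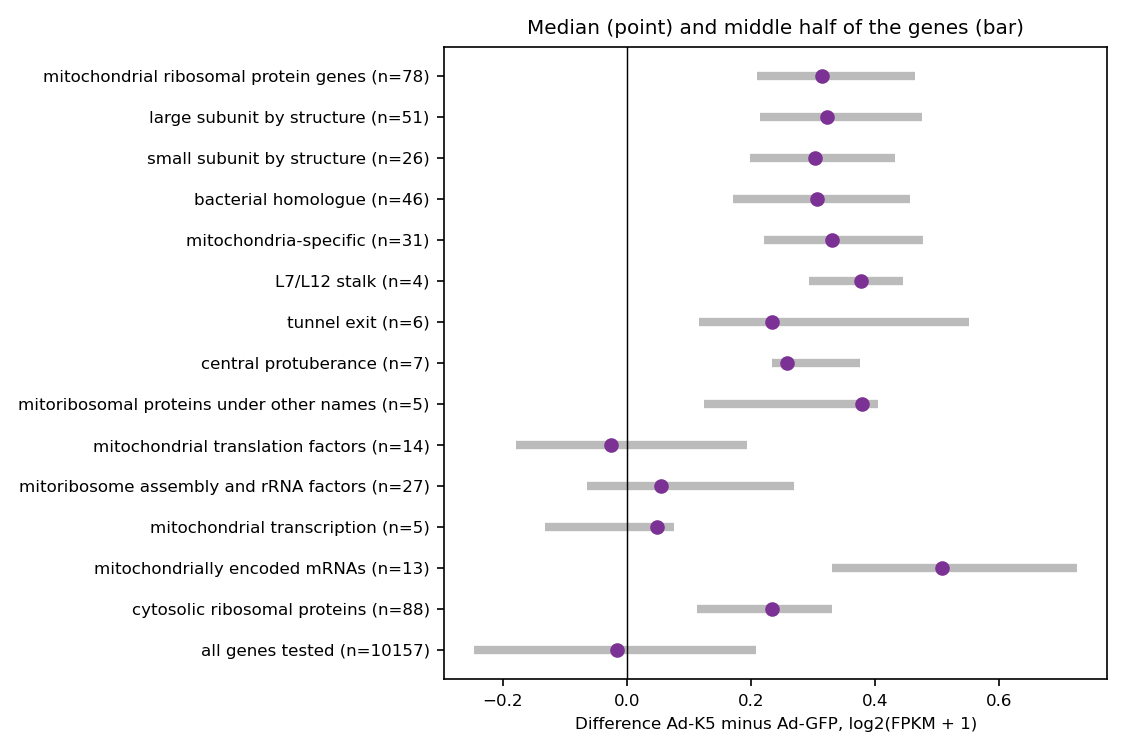
Difference Ad-K5 minus Ad-GFP on the log2(FPKM + 1) scale (x axis) for each group of genes, with the median as a point and the interquartile range of the genes as a bar. The groups of mitochondrial ribosomal proteins have medians from 0.23 to 0.38, while translation, assembly and transcription factors lie between -0.026 and 0.054, near all genes at -0.017.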

How the data were processed

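RNA of VSMCs infected with Ad-K5 or Ad-GFP was sequenced, 1 named library per group. The authors deposited FPKM values for protein-coding genes; the tools listed in the submitters' processing notes, with no role or order, are StringTie, HISAT2 (2.0.5), cutadapt and STAR (2.5.2b). The methods of the study instead describe HTSeq counts aligned to the human genome, so how the values were made, and which genes were kept, is uncertain. The notes name an older mouse build, while 72 of the 78 genes have the GRCm38 coordinates of GENCODE vM21, matched by gene ID. The table also holds 2 columns named FPKM with a number only, which give no group, and 4 columns of the authors' comparison; none was used. Rows that share a symbol were summed (11263 symbols), and differences of log2(FPKM + 1) were taken for 10157 genes averaging 1 FPKM or more over both libraries. With 1 library per group no test or p-value was computed, and depth is unknown. The calculation was run on simulated data with a known shift put in. That checks the code only, and not noise between libraries, length or scaling in these data. Exon length is the union of exons in GENCODE vM21, and promoters are from RefSeq. Python 3.11.15, numpy 2.4.6, pandas 2.3.3 and matplotlib 3.10.9 were used.

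The genes, lists and places in the ribosome were chosen with earlier results of these data known. Values are given for the 8 highest and 8 lowest differences, the 5 highest and 5 lowest mean levels, the stalk, tunnel exit and central protuberance, the Mrps18 family, Mrps30 and Mrps36, and up to 4 genes of each pathway list, by size of the difference; further genes were named after their values were seen. The windows of Mrpl9 and Mrps11 were also chosen after seeing the values. Alternatives were pseudocounts of 0.1 and 5, no filter on level, a limit of 5 FPKM on the mean, centring on the median, scaling to a common sum, the highest row per symbol, assignment by structure, and adding the genes under other names.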

Additional observations from a re-analysis of the deposited data

How the results depend on the processing

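No paired analysis was possible because each group has 1 library, and leaving out a library and using the 2 columns that give no group were not run. The median difference of the 78 genes stayed between 0.22 and 0.34 under the alternatives, and the count above 0 stayed at 74 of 78 except with scaling to a common sum (67 of 78, with all genes at a median of -0.11), with a mean of at least 5 FPKM (67 of 71) and with the genes under other names (79 of 83). The count of genes 1.5-fold higher was 10 as reported, where 4.44% of all genes were. It was 3 with a pseudocount of 5 and 5 with scaling to a common sum, where 1.89% and 2.90% of all genes were. With a pseudocount of 0.1 it was 11, as Mrps18b passed, where 6.43% of all genes were. With a mean of at least 5 FPKM it was 8, where 4.80% of all genes were. The count of genes 2-fold higher, 0 as reported, was 1, Mrpl13, with a pseudocount of 0.1. The median of the large subunit minus that of the small subunit, 0.0086 as reported, lay between -0.0094 (a pseudocount of 5) and 0.020 (assignment by structure). No difference could be checked against replicates.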

Other observations

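The genes lie on 17 chromosomes, with 11 on chromosome 11 and 8 on chromosome 17, whose median differences were 0.23 and 0.41. The divergent genes Mrpl46 and Mrps11 on chromosome 7 overlap at their starts and share 173 exon bases. Mrps11, of the small subunit, was at 28.5 FPKM in Ad-K5 and 20.9 FPKM in Ad-GFP (a difference of 0.43), and Mrpl46, of the large subunit, had a difference of 0.26. GENCODE vM21 names 5 processed pseudogenes after these genes, 1 of Mrpl23, 1 of Mrpl48 and 3 of Mrps36. Their reads could be split with those genes, so the values of these 3 genes are uncertain. Pseudogenes under other names were not searched for, so whether the other genes have any is not known.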
